A study of Mus musculus with 6 samples.

Results

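The renal pelvis is lined by urothelium, and 9 genes that mark this lining were followed in adult mouse kidneys: the uroplakins Upk1a, Upk1b, Upk2, Upk3a and Upk3b, the keratins Krt7 and Krt15, the basal cell regulator Trp63 and the surface protein gene Psca. They were taken by name, whatever their values, from 22180 genes measured on Affymetrix Mouse Gene 2.1 ST arrays, and 9 of 9 were present, each through 1 transcript cluster (the set of probes that summarises a transcript) with a single gene symbol. The arrays labelled knockout came from kidneys of mice homozygous for floxed Pax2 and Pax8, the paired-box factors of kidney development, with a tamoxifen-inducible Cre at the ubiquitously active Rosa26 locus. There were 3 of them (replicates 1, 3 and 5), set against 3 Cre-negative controls (replicates 2, 4 and 6). Tamoxifen, 50 mg/kg on 3 consecutive days, was injected in both groups at an age of 8 weeks and once more at 10 weeks, and tissue was collected 14 days later. Each group holds 1 male (labelled knockout 1, control 4) and 2 females. RNA came from bisected kidneys, so each array holds whatever length of pelvis stayed on its piece. In such bulk RNA, fewer urothelial cells and less RNA per urothelial cell cannot be told apart. The labels do not say that each array is a separate animal, so the p-values speak of the spread among these 6 samples, which may be technical.

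Urothelium is a layered epithelium that keeps urine from leaking back into tissue. Its surface (umbrella) cells carry plaques built from uroplakins: the tetraspanins Upk1a and Upk1b each escort a single-span partner (Upk1a with Upk2, Upk1b with Upk3a) out of the endoplasmic reticulum to the apical membrane. Basal cells hold the stem-like population and need Trp63, the p63 transcription factor of stratified epithelia. Keratins form the intermediate filaments of epithelial cells, and Krt7 is found in urothelium and also in simple epithelia such as ducts.

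Values are the authors' log2 expression values, on which 1 unit is a 2-fold difference. The median over all clusters lay between 3.81 and 3.87 on the 6 arrays, and Pearson's r between arrays, across genes, between 0.979 and 0.995. The targeted gene Pax8 was higher on the arrays labelled knockout, at 10.11, 10.59 and 10.39, against 9.09, 9.0 and 8.89 on controls 2, 4 and 6 (log2 difference 1.36 ± 0.12, SE; limma adjusted p = 0.0037). Pax2 differed by 0.27 ± 0.10 and did not pass (limma adjusted p = 0.19). Which exons the deletion removes is not given in the labels, and a probe outside them cannot check it, so groups are named as labelled. As a yardstick for dim signal, the 1105 olfactory receptor genes had a median of 2.25, and 95% of them lay below 3.64. Every one of the 9 markers exceeded 3.64 on 6 of 6 arrays, Trp63 narrowly. The keratin of basal cells Krt14, which is no member, lay below it on all 6 (2.93 to 3.33).

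RefSeq's promoter table (GRCm38.p6) held 4 of the 9 markers, and 3 are shown, each as the 250 bases before the gene's start. Krt7 is the marker whose level passed the test between the groups, Upk1a is a member of the umbrella cell plaque that did not, and Upk3b is the marker whose window held one of the motifs searched. The windows are chr15:101412153-101412402 on the plus strand for Krt7, chr7:30612735-30612984 on the minus strand for Upk1a and chr5:136038246-136038495 on the plus strand for Upk3b; capitals mark the motif match.
Krt7: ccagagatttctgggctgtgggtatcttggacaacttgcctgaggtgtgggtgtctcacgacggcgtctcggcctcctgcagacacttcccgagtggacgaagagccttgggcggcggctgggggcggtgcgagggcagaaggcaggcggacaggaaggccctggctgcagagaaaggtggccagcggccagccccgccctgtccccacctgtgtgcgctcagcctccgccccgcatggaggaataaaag
Upk1a: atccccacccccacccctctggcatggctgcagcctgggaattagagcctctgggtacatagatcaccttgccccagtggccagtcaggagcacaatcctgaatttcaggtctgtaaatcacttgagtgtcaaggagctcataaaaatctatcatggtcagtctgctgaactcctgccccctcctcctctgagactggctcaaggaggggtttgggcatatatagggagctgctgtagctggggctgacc
Upk3b: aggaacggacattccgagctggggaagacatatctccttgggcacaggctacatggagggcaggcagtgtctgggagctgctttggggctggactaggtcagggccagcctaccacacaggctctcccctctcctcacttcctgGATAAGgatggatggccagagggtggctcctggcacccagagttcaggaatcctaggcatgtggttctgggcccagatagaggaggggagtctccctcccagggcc
The motifs searched on both strands were GATAAG of GATA factors, AACCNGTT of grainyhead-like factors and GTCACGC, a core bound by paired domains such as those of Pax2 and Pax8; they do not overlap in these windows. The GATAAG match in Upk3b begins 106 bases before the gene's start, and GATAAG is present in 7.44% of all 32851 windows of 300 bases. AACCNGTT and GTCACGC, each present in 2.09% of those windows, were found in none of the 4 marker windows. The Krt7 window is 66.0% G or C, against 54.4% for Upk1a and 60.8% for Upk3b.

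The plaque genes of umbrella cells were not called different between arrays labelled knockout and controls, while the keratin Krt7 was higher. Of the 9 markers 1 passed the limma test at an adjusted p of 0.05, 1 higher and 0 lower, and over all genes 7.2% passed, 4.12% higher and 3.08% lower. A share of 1 in 9 is close to that background. The median log2 difference was 0.05 over the 9 markers and -0.01 over all genes. At an unadjusted p under 0.05 there were 2 of 9 markers, Krt7 and Psca, against 22% of all genes.

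**Figure D1:**
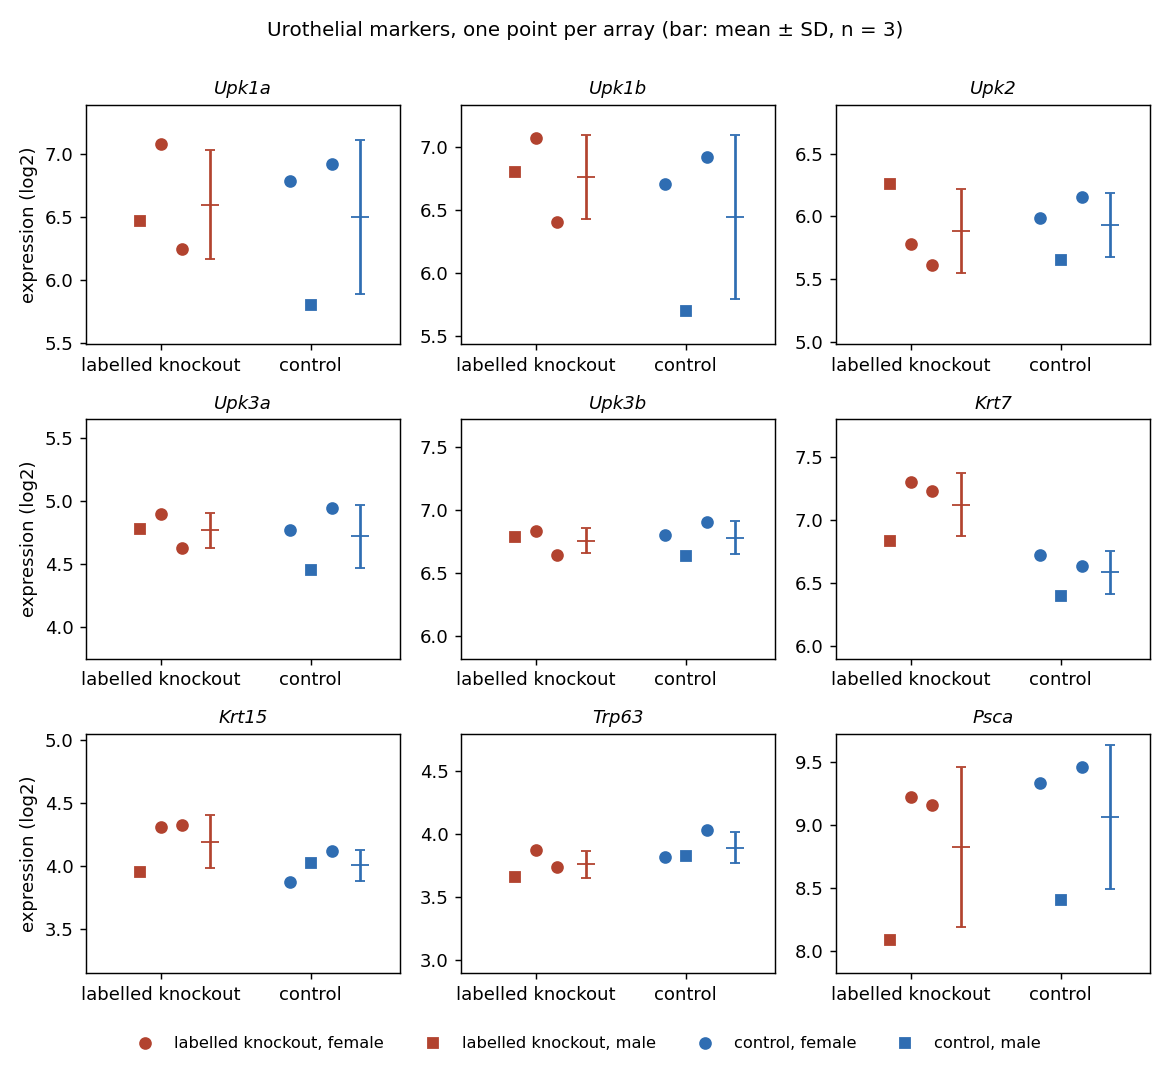
Expression of the 9 markers (vertical axis, log2; each panel spans the same range) on the 3 arrays labelled knockout and the 3 controls; circles are females, squares males, and bars the mean ± SD (n = 3). The groups overlap in 8 of the 9 panels and are apart for Krt7, whose arrays labelled knockout lie between 6.84 and 7.30 and controls between 6.40 and 6.72.

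Upk1a, the tetraspanin that pairs with Upk2, stood at 6.47, 7.08 and 6.24 on the arrays labelled knockout 1, 3 and 5, against 6.78, 5.80 and 6.92 on controls 2, 4 and 6. The groups overlapped, and the male control was the lowest of all. The log2 difference was 0.10 ± 0.26 (SE), a fold of 1.07 with a 95% interval of 0.70 to 1.63 (limma adjusted p = 0.88). Its partner Upk2 had 6.26, 5.78 and 5.61 on the arrays labelled knockout, against 5.99, 5.66 and 6.15 on the controls. Here the male labelled knockout was the highest array, and both females labelled knockout lay below both female controls. The difference was -0.05 ± 0.20, with an interval of 0.70 to 1.34 as a fold (limma adjusted p = 0.93).

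Upk1b, the tetraspanin that pairs with Upk3a, had 6.80, 7.07 and 6.41 on the arrays labelled knockout, against 6.70, 5.70 and 6.92 on the controls. Control 4 was again lowest, well below the other controls. The difference of 0.32 ± 0.27 (SE) did not pass (limma adjusted p = 0.58), and its interval, 0.79 to 1.96 as a fold, is the widest of the 9 on the fold scale. Upk3a, the plaque protein with a cytoplasmic tail, varied less, at 4.78, 4.90 and 4.62 on the arrays labelled knockout, against 4.77, 4.45 and 4.95 on the controls. It differed by 0.05 ± 0.13 (interval 0.83 to 1.28 as a fold; limma adjusted p = 0.88). Upk3b, a relative of Upk3a that is also made by mesothelium, was the steadiest marker, at 6.79, 6.84 and 6.64 on the arrays labelled knockout, against 6.80, 6.64 and 6.90 on the controls. Its range over the 6 arrays was 0.26, and the difference was -0.03 ± 0.10 (interval 0.83 to 1.16 as a fold; limma adjusted p = 0.92). For these 5 genes the upper ends of the intervals are folds of 1.16 to 1.96 and the lower ends folds of 0.70 to 0.83. Differences in either direction remain within them, so equality is not shown.

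Krt7 had 6.84, 7.30 and 7.23 on the arrays labelled knockout 1, 3 and 5, against 6.72, 6.40 and 6.64 on controls 2, 4 and 6. All 3 arrays labelled knockout lay above all 3 controls, a separation found for 22.5% of all genes, and the gap between the male labelled knockout and control 2 was small. The means were 7.12 ± 0.25 and 6.59 ± 0.17 (SD, n = 3 each), a 1.45-fold rise (log2 difference 0.54 ± 0.08, SE; limma adjusted p = 0.016), and exact permutation of the arrays gave a two-sided p of 0.1, its lower limit with 3 arrays per group. The call was lost in 4 of the 6 fits that left out a single array, with adjusted p of 0.060 without labelled knockout 3, 0.061 without labelled knockout 5, 0.066 without control 2 and 0.071 without control 6. The log2 difference stayed between 0.50 and 0.59 over those 6 fits. With sex in the model, leaving out either male gives the same fit as the females alone, so the 6 fits are 5 different ones, and Krt7 lost its call whenever a female was left out. The call was also lost without sex in the model (adjusted p = 0.13) and with every cluster of the table tested (0.071).

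Krt15, a keratin of basal and progenitor cells in several epithelia, had 3.95, 4.31 and 4.33 on the arrays labelled knockout, against 3.87, 4.03 and 4.12 on the controls. The females labelled knockout were the highest arrays, but the male was below 2 controls, and the difference of 0.19 ± 0.12 (SE) did not pass (limma adjusted p = 0.41). Trp63 lay at 3.66, 3.88 and 3.74 on the arrays labelled knockout, against 3.82, 3.83 and 4.03 on the controls, near the upper level of olfactory receptor genes. Its difference was -0.13 ± 0.09 (limma adjusted p = 0.48).

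Psca, a small anchored surface protein of the Ly6 family first named for prostate stem cells, had 8.09, 9.23 and 9.16 on the arrays labelled knockout, against 9.33, 8.41 and 9.46 on the controls. The groups overlapped, with the males lowest in both, and within each sex the arrays labelled knockout were the lower ones. With sex in the model the difference was -0.24 ± 0.08 (SE; unadjusted p = 0.023), which did not pass over all genes (limma adjusted p = 0.14). Between the sexes Psca stood at 8.09 and 8.41 on the male arrays, against 9.16 to 9.46 on the 4 female arrays. It was 2.06-fold lower in males (log2 difference -1.05 ± 0.09, SE; limma adjusted p = 0.0041), where 1.87% of all genes passed between the sexes. This call held in 6 of 6 fits that left out an array; the fit without labelled knockout 1 (adjusted p = 0.047) and that without control 4 (0.030) have a single male array, whose spread is taken from the other arrays. None of the other 8 markers passed between the sexes; Krt7 was closest, at -0.36 ± 0.09 (limma adjusted p = 0.10).

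A dependence of the genotype difference on sex was tested with a genotype by sex term, and 0 of the 9 markers passed limma's adjusted threshold, against 0.00451% of all genes. At an unadjusted p under 0.05 there were 2 of 9, Upk2 and Upk1b, against 6.99% of all genes. Upk2 came closest, with a term of 0.97 ± 0.20 (SE; unadjusted p = 0.0032, limma adjusted p = 0.51), followed by Upk1b with 1.18 ± 0.39 (unadjusted p = 0.024, limma adjusted p = 0.66). With 1 male per group this term rests on labelled knockout 1 and control 4. The pelvis signal described next is read from Upk1a, Upk2 and Upk3a themselves, so it is no separate measure of how these 2 arrays differ.

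How much pelvis each array held was gauged by a pelvis index, the mean over Upk1a, Upk2 and Upk3a of the log2 value minus that gene's mean over the 6 arrays. The index was 0.10, 0.19 and -0.24 on the arrays labelled knockout 1, 3 and 5, against 0.11, -0.43 and 0.27 on controls 2, 4 and 6. By this index control 4 had the weakest signal and control 6 the strongest, 1.63-fold apart. Labelled knockout 5 was the next weakest, and without control 4 the range narrowed to 1.43-fold. The index averaged 0.02 ± 0.23 on the arrays labelled knockout and -0.02 ± 0.37 on the controls (SD, n = 3 each). Between the males it was 0.53 higher on labelled knockout 1 than on control 4. This gap restates the values of the 3 uroplakins in the index and is no separate measure of sampling. Whether a genotype by sex term of an uroplakin reflects pelvis sampling was not tested, and the 2 cannot be told apart here. The 3 genes of the index were not uniform: Upk1a and Upk3a were lowest on control 4, and Upk2 was lowest on labelled knockout 5. Other urothelial lists varied as well. Relative to their own means, transcription factors (-0.31) and other keratins (-0.34) were lowest on control 4. Uroplakin trafficking and other urothelial genes were at -0.07 there and lowest on labelled knockout 3 (-0.08), and basal adhesion genes were at 0.001 on control 4. Of the 6 markers outside the index, control 4 was the lowest array for 3 (Upk1b, Upk3b and Krt7), as for 21.7% of all genes. Control 6 was the highest for 3 (Upk3b, Trp63 and Psca) and labelled knockout 3 for 2 (Upk1b and Krt7).

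Other tissues of the renal sinus were read beside the index. Of 10 smooth muscle genes of the kind found in the pelvic wall, 1 rose and 0 fell (median log2 difference 0.02). The rise was in Tagln, the actin-binding transgelin (0.83 ± 0.15, SE; limma adjusted p = 0.027), whose call was lost in 5 of 6 fits that left out an array (largest adjusted p 0.10). The list's mean level was 5.72 to 5.90 on the arrays labelled knockout and 5.36 to 6.02 on the controls. Relative to its own mean it was lowest on control 4 (-0.43) and next lowest on labelled knockout 5 (-0.07), the arrays with the lowest index. Of 7 measured fat cell genes 0 passed limma's test, and 0 had an unadjusted p under 0.05. Their mean level was 4.62 to 5.52 on the arrays labelled knockout and 4.40 to 6.37 on the controls, again lowest on control 4 and labelled knockout 5. The share of pelvic wall and sinus fat in the marker values was not tested. The list read for inner medulla and papilla followed the genotype label in its mean, but not uniformly: 6 of 8 measured genes fell and 1 rose. The falls ran from -0.88 ± 0.16 for Aqp2 to -3.64 ± 0.19 for Slc14a2 (log2, SE). Ptgs2 rose by 1.07 ± 0.19 (limma adjusted p = 0.024), with overlapping groups. Calb1, which is not specific to the inner medulla, differed by 0.03 ± 0.09 and did not pass (limma adjusted p = 0.91). The list's mean level was 7.29 to 7.47 on the arrays labelled knockout against 8.30 to 8.88 on the controls. Less papilla on an array and less RNA of these genes per cell cannot be told apart here. Of 9 measured cortex genes, mostly of the proximal tubule, 3 fell and 0 rose.

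**Figure D2:**
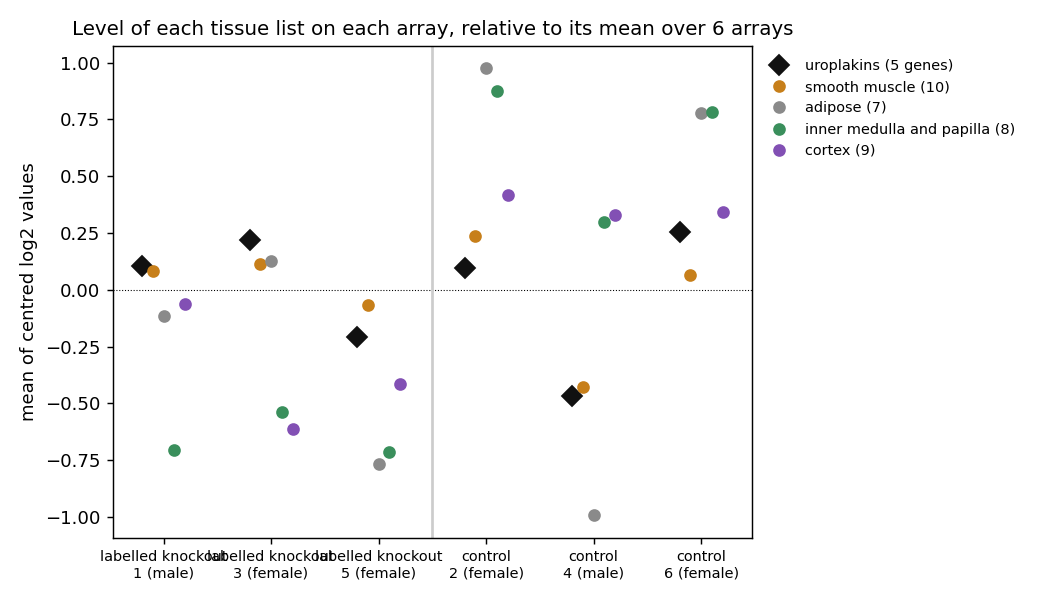
Mean of the log2 values of each tissue list after subtracting each gene's mean over the 6 arrays (vertical axis), by array; the vertical line parts the arrays labelled knockout from the controls. Uroplakins, smooth muscle and fat genes are lowest on control 4, where the uroplakin mean is -0.47, while inner medulla genes are below 0 on all 3 arrays labelled knockout and above 0 on all 3 controls.

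The pelvis index differed between the groups by 0.03, so a fit with the index beside sex could hardly move a group difference. How pelvis sampling enters the values was not tested. The fit did change the spread left around some differences. The SE of Upk1b was 0.27 without the index and 0.08 with it, that of Krt7 0.08 and 0.09. With the index the log2 difference of Krt7 was 0.54 ± 0.09 (SE, limma adjusted p = 0.024, 2 residual degrees of freedom). Relative to the index, Krt7 was at -0.12, 0.26 and 0.62 on the arrays labelled knockout 1, 3 and 5, against -0.24, -0.03 and -0.49 on controls 2, 4 and 6. On this scale the groups overlapped, since the male labelled knockout lay below the male control. The subtraction takes Krt7 to follow the index in full, which is not shown. By root mean square difference Krt7 lay at 0.36 from the index, and a gene with the same value on every array would lie at 0.25. The same fit gave 0.27 ± 0.08 for Upk1b (unadjusted p = 0.015, limma adjusted p = 0.11), -0.04 ± 0.08 for Upk3b, 0.20 ± 0.11 for Krt15, -0.14 ± 0.10 for Trp63 and -0.24 ± 0.09 for Psca (limma adjusted p of 0.84, 0.39, 0.49 and 0.19).

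Among other keratins known from urothelium, Krt8, Krt18, Krt19 and Krt20 rose. Of 9 measured, 4 rose and 0 fell, with a median of 0.14, and Krt5 was not analysed here. Krt19, a type I keratin of ducts and of urothelium, had 6.23, 6.79 and 6.25 on the arrays labelled knockout, against 5.10, 4.68 and 5.29 on the controls, a 2.64-fold rise (log2 difference 1.40 ± 0.15, SE; limma adjusted p = 0.0067). All 3 arrays labelled knockout lay above the controls for this gene, with control 4 lowest. Krt18, a type I keratin of simple epithelia, had 7.68, 8.14 and 7.77 on the arrays labelled knockout, against 6.95, 6.46 and 7.14 on the controls, and rose 2.01-fold (limma adjusted p = 0.010). Its filament partner Krt8 had 8.69, 9.04 and 8.80 on the arrays labelled knockout, against 8.08, 8.03 and 7.91 on the controls, and rose 1.79-fold (limma adjusted p = 0.011). Krt20, a keratin of umbrella cells that injured proximal tubules also make, had 4.91, 5.43 and 5.89 on the arrays labelled knockout, against 3.97, 3.90 and 4.63 on the controls. It rose 2.37-fold (limma adjusted p = 0.020).

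The groups did not overlap for any of these 4 keratins, a separation found for 22.5% of all genes. These 4 were named for having the smallest p of their list. None of them is specific to the renal pelvis, since tubules and collecting ducts make Krt8, Krt18 and Krt19 as well. Krt19 kept its call in 6 of 6 fits with a single array left out. The others lost it in some: Krt18 without control 2 (adjusted p = 0.054), Krt8 without control 2 (0.051) or control 6 (0.050), and Krt20 without labelled knockout 5 (0.063) or control 2 (0.051). Without sex in the model Krt18 (0.053) and Krt20 (0.079) missed the threshold, and with every cluster tested Krt8 and Krt18 (both 0.055) and Krt20 (0.083) did. With a gene's clusters averaged, Krt18 differed by 0.79 (adjusted p = 0.054). Krt13, Krt4, Krt14, Krt17 and Krt6a, keratins of stratified layers, did not pass. Of these, Krt14, Krt17 and Krt6a exceeded the olfactory receptor level on 0 of 6 arrays, Krt13 on 2 and Krt4 on 6, so most were too dim to read a change. Next to Krt7 on chromosome 15, in the cluster of type II keratin genes, Krt80 fell (-0.69 ± 0.12, SE; limma adjusted p = 0.024), a gene chosen after its value was seen, whose call was lost in 4 of 6 fits that left out an array (largest adjusted p 0.095).

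**Figure D3:**
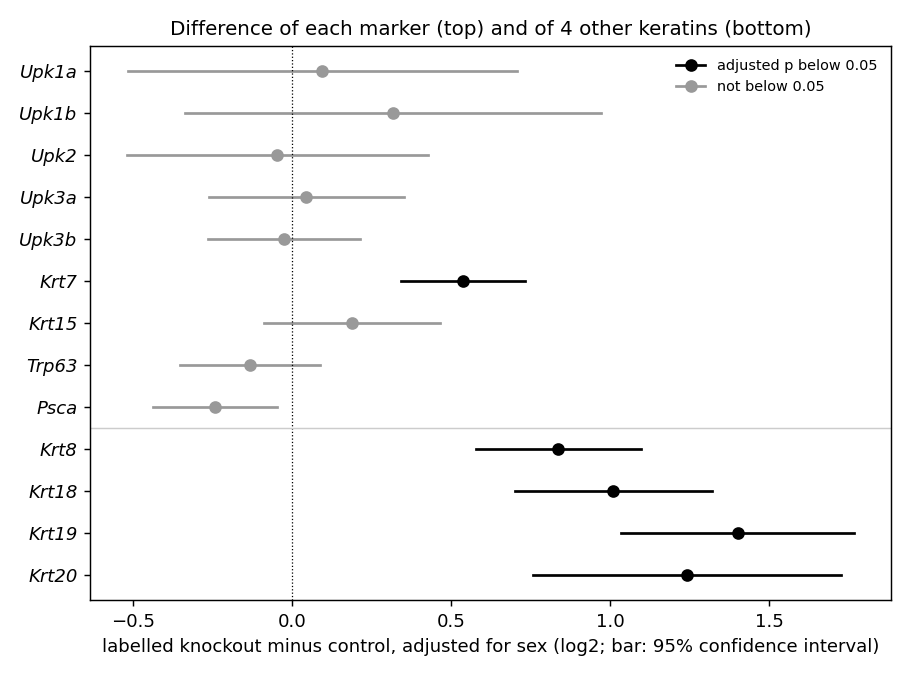
Log2 difference between arrays labelled knockout and controls with sex in the model (horizontal axis; points, limma estimates; bars, 95% confidence intervals) for the 9 markers and, below the line, 4 other keratins. Krt7 and the 4 keratins lie to the right of 0 with adjusted p below 0.05, and the 5 uroplakins lie between -0.05 and 0.32.

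**Figure D4:**
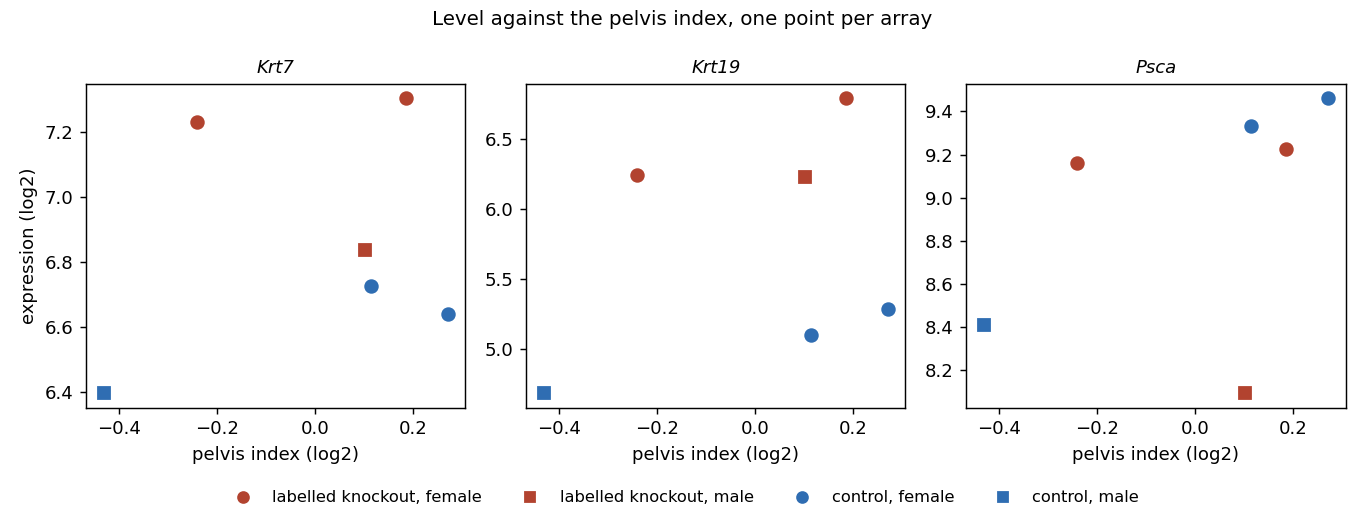
Level of Krt7, Krt19 and Psca (vertical axes, log2) against the pelvis index (horizontal axis, log2), with 1 point per array, circles for females and squares for males. At an index of -0.24 labelled knockout 5 is above every control for Krt7 and Krt19, and for Psca the 2 male arrays lie below the 4 females at an index of 0.10 and of -0.43.

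Genes that regulate urothelial identity were not called different. Of 10 transcription factors of urothelium 0 passed limma's adjusted threshold, and 2 had an unadjusted p under 0.05: Elf3, an ETS factor of epithelial differentiation (0.39 ± 0.11, SE; limma adjusted p = 0.089), and Gata3, which acts in urothelium and in the collecting duct (0.28 ± 0.10; limma adjusted p = 0.16). The list's median was 0.04, and its mean level was 5.64 to 5.91 on the arrays labelled knockout and 5.44 to 5.91 on the controls. Of 12 uroplakin trafficking and other urothelial genes 0 passed as well, and 1 had an unadjusted p under 0.05, the apical transport protein gene Mal2 (-0.38 ± 0.09; limma adjusted p = 0.058).

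Of 10 measured genes of basal cell adhesion, which anchor basal cells to their matrix and to each other, 1 rose and 0 fell (median -0.11). The rise was in Cd44, a hyaluronan receptor of basal urothelium that leukocytes and injured tubules also make. It had 5.09, 4.45 and 4.66 on the arrays labelled knockout, against 3.75, 4.03 and 3.86 on the controls (log2 difference 0.85 ± 0.11, SE; limma adjusted p = 0.0098; 0.051 without control 2 and 0.056 without sex in the model). The hemidesmosome integrin Itgb4 (0.33 ± 0.08) and the laminin chain Lamb3 (-0.56 ± 0.14) differed in opposite directions and did not pass (limma adjusted p of 0.056 and 0.068). With the pelvis index beside sex they were at 0.33 ± 0.08 and -0.58 ± 0.08 (limma adjusted p of 0.077 and 0.017).

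The genes whose profile over the 6 arrays lay closest to the pelvis index were searched among 3710 genes that vary at least as much as it. By root mean square difference on the log2 scale they were Hid1 (0.099), Lrrc52 (0.11), Retnla (0.11), Pnma5 (0.12) and Zfp788 (0.12). Retnla and Pnma5 averaged below the olfactory receptor level of 3.64. All 5 were lowest on control 4, from -0.47 to -0.53 relative to their own mean, which the selection for closeness to the index largely fixes. The markers left out of the index lay at 0.16 (Upk3b), 0.23 (Upk1b and Trp63), 0.31 (Krt15), 0.36 (Krt7) and 0.46 (Psca), where a gene with the same value on every array would lie at 0.25. The index's own genes lay at 0.093 (Upk3a), 0.18 (Upk2) and 0.22 (Upk1a). Among all 22180 genes, however little they vary, these ranked 8, 639 and 2433 by closeness. A small difference from the index is therefore not particular to urothelial genes. This measure counts the size of a profile as well as its shape. Upk1b ranged over 1.37 and the index over 0.70, so its 0.23 does not mean that Upk1b ignored the index.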

How the data were processed

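RNA of 6 adult mouse kidney samples was labelled from 400 ng per sample and measured on 1 array each. The deposited values are log2 expression per transcript cluster; the submitters' processing notes name RMA, R 3.4.0 and limma without roles. No source used here gives the filters or the genome build. The authors' log2 values were used as deposited. Of 41345 clusters, 23521 have 1 gene symbol in the platform annotation, 1814 several and 16010 none; the first were kept, with the highest-mean cluster per gene (22180 genes). A RefSeq table of GRCm38.p6 matched 23328 of the 23521 clusters with 1 symbol and changed 0 symbols.

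The test was limma 3.58.1 in R 4.3.3 (a linear model of genotype and sex, default moderation, 3 residual and 6.72 total degrees of freedom), with Benjamini-Hochberg adjustment over all genes and a threshold of 0.05; a difference is labelled knockout minus control. The 6 arrays limit the precision, and the fit was tested on simulated data. Markers and lists (91 of 97 listed genes measured) were chosen with earlier results of these data known. Named are the 9 markers, Pax2 and Pax8, up to 4 genes per list with the smallest p and the 5 genes most like the pelvis index; other genes were picked with their values in view. Alternatives were a model without sex, females only, single arrays left out, quantile normalization, a trended robust prior, median centring, array weights, averaged clusters, removal of dim genes (mean below 3.64), a test of every row and the pelvis index as covariate; those for genes beyond the markers and the single arrays left out of the sex test were added after seeing the data.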

Additional observations from a re-analysis of the deposited data

How the results depend on the processing

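No paired analysis was possible because the groups share no replicate numbers. The count of markers called was 1 under females only, quantile normalization, the trended robust prior, median centring, array weights, averaged clusters and removal of dim genes, and 0 without sex in the model and with every row tested, where more rows enter the adjustment (Krt7 adjusted p of 0.13 and 0.071). With single arrays left out it ranged from 0 to 1. Over all genes, 1596 were called, against 471 without sex, 302 with every row tested, 2162 with the trended robust prior and 344 (without control 2) to 1249 with single arrays left out. The genotype by sex count stayed 0 under the trended robust prior and median centring. The fits without either male repeat the females-only fit, so the tallies that follow count it 3 times. Of 141 re-estimates of the 9 markers, 120 kept direction and call, 6 lost the call of Krt7 and 15 turned the sign of an uroplakin that was never called. In females alone Upk1a was at -0.19, Upk1b at -0.076 and Upk3a at -0.097, and quantile normalization gave -0.020 for Upk3a. With single arrays left out the log2 difference ranged from -0.19 to 0.42 for Upk1a, -0.076 to 0.62 for Upk1b, -0.37 to 0.094 for Upk2, -0.097 to 0.16 for Upk3a and -0.11 to 0.056 for Upk3b. Signs turned at -0.19 and -0.062 for Upk1a, -0.076 for Upk1b, 0.094 and 0.092 for Upk2, -0.097 for Upk3a, and 0.056 and 0.028 for Upk3b; the cause was not tested. Of 288 re-estimates of 18 other named genes, 39 lost and 7 gained a call and 0 changed direction.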

Other observations

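Mesothelium, the covering of the kidney's surface that also makes Upk3b and Upk1b, was read through 8 genes, of which 2 rose and 1 fell. Efemp1, a matrix glycoprotein, rose (0.94 ± 0.10, SE; limma adjusted p = 0.0066), as did Cldn15, a pore-forming claudin (0.49 ± 0.11; limma adjusted p = 0.041; groups overlapped, lost in 4 of 6 fits that left out an array, with adjusted p up to 0.14 there, 0.46 without sex, 0.13 with every row tested, 0.061 with the pelvis index and 0.050 under quantile normalization). The membrane glycoprotein gene Gpm6a fell (-0.91 ± 0.13; limma adjusted p = 0.014; up to 0.058 in the 2 of 6 such fits that lost it, 0.056 without sex and 0.067 with every row tested). Msln, mesothelin, differed by 0.71 ± 0.19 and did not pass (limma adjusted p = 0.078). On the controls Efemp1 averaged 8.42 and Gpm6a 10.26, far above Msln at 3.90. Which kidney cells the Efemp1, Cldn15 and Gpm6a signals came from was not tested. The mesothelial genes Lrrn4, Muc16 and Bnc1 lay below 3.64 on all arrays, at most 2.79, 2.35 and 3.29. The list's mean level was 5.19 to 5.35 on the arrays labelled knockout and 5.03 to 5.18 on the controls.

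Adrenal tissue was read through 8 genes of steroid and catecholamine synthesis and its control. Of these 0 passed limma's adjusted threshold (3 at an unadjusted p under 0.05). All 8 averaged below the olfactory receptor level, Star narrowly, which exceeded it on 4 of 6 arrays.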
